A study of Homo sapiens with 17 samples.

Results

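The respiratory chain is built from the products of 2 genomes, and the mRNAs of both were followed here in MOLM13 cells in which HOXA9, SAFB or MEIS1 had been targeted by CRISPR. MOLM13, a human cell line established from acute myeloid leukaemia, expresses the MLL-AF9 fusion protein. Members were the protein-coding genes whose symbols begin with NDUFA, NDUFB, NDUFC, NDUFS, NDUFV, UQCR or ATP5 with an F1, P or M name, the COX4 to COX8 subunits, SDHA to SDHD, and the mitochondrial mRNAs. The rule gave 102 of 58278 gene identifiers, 89 nuclear and 13 mitochondrial. The nuclear set held 40 genes of complex I, 4 of complex II, 9 of complex III, 17 of complex IV and 19 of ATP synthase, grouped by symbol, so that NDUFA4, now regarded as a complex IV subunit, stands with complex I. The mitochondrial set held 7, 0, 1, 3 and 2 in the same order.

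Complexes I to IV pass electrons from NADH and succinate to oxygen, all of them except complex II pump protons across the inner mitochondrial membrane, and ATP synthase uses the returning protons to make ATP. Complex II is the only one of these without a mitochondrially encoded subunit. Nuclear subunits are transcribed singly and imported as proteins, whereas the mitochondrial mRNAs are cut from long transcripts of both strands of mitochondrial DNA. Acute myeloid leukaemia cells have been described as relying on oxidative phosphorylation.

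The first experiment compared cells with a HOXA9 knockout (HOXA9_KO, 3 libraries) and cells with a SAFB knockout (SAFB_KO, 3 libraries) with cells given a non-targeting guide (NT, 3 libraries). The second compared 4 libraries of a MEIS1 knockout (MEIS1_KO) with 4 of their own non-targeting controls (NT_MEIS1ex). All 5 groups carried the MLL-AF9 fusion and the labels give no drug treatment or time. HOXA9 is a homeodomain transcription factor, MEIS1 its DNA-binding cofactor, and SAFB a nuclear protein that binds RNA and scaffold-attached DNA. Separate cultures or clones behind the libraries are not stated in the labels, so p-values measure the spread between libraries, which may be technical.

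Levels are in CPM, the standard library-size-scaled read count, here with TMM factors, and differences are log2 changes ± SE from edgeR's quasi-likelihood test. "Nuclear protein-coding scaling" is the alternative in which libraries are scaled to their nuclear protein-coding counts in place of TMM factors. It moved the median change of all tested genes by -0.25 in HOXA9_KO, -0.14 in SAFB_KO and 0.027 in MEIS1_KO. The medians under it were -0.32, -0.16 and 0.029. Counts of calls under it are given without the share of all tested genes, and are to be read against these medians. The medians do not give that share, so such counts alone are no result about the members. A gene is called, and is said to rise or fall, at a Benjamini-Hochberg adjusted p under 0.05 over all tested genes. Assigned reads ranged from 30.7 to 67.8 M per library in the first experiment and from 23.3 to 33.2 M in the second. Each targeted transcript fell in its own knockout, HOXA9 by 0.93 ± 0.055, SAFB by 0.89 ± 0.066 and MEIS1 by 1.54 ± 0.072, and MEIS1 also fell by 1.54 ± 0.057 in HOXA9_KO and by 0.31 ± 0.051 in SAFB_KO. The summed level of 10 myeloid genes was 5513 to 5636 CPM in NT, 29686 to 32643 in HOXA9_KO and 13532 to 15251 in SAFB_KO, and went from 4395 to 5988 in NT_MEIS1ex to 7979 to 8281 in MEIS1_KO. Of these 10 genes, 9 rose and 1 fell in HOXA9_KO, 7 rose and 2 fell in SAFB_KO, and 5 rose in MEIS1_KO. A sum leans on the most abundant genes, and the median log2 changes of the 10 were 1.09, 0.43 and 0.27 in the same order. All 6 erythroid and megakaryocyte markers were under 1 CPM (summed 0.187 to 0.673 CPM per library), as were 5 of 6 non-blood markers (summed 6.43 to 12.7 CPM) and 4 or 5 of 6 lymphoid markers (summed 93.6 to 161 CPM). Mitochondrial rRNA took 22.5% to 35.5% of assigned reads in the first experiment and at most 0.00941% in the second, and it was higher in each HOXA9_KO library than in any NT library. Reads that the counting assigned to no gene made up 16.4% to 18.1% of assigned, unassigned and ambiguous reads in NT. In HOXA9_KO they were 8.65% to 9.27% and in SAFB_KO 10.6% to 12.7%. The counts do not tell whether these reads lay between genes or in unannotated parts of genes. The part of these shifts in the results that follow was not tested, and in bulk RNA fewer cells of a type and less RNA per cell cannot be told apart.

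Nuclear and mitochondrial subunit mRNAs moved in different combinations in the 3 knockouts. With mitochondrial rRNA left out of the total, the summed nuclear members made up 0.851%, 0.865% and 0.867% of assigned reads in NT, 0.938%, 0.909% and 0.925% in HOXA9_KO, and 0.906%, 0.878% and 0.892% in SAFB_KO. Both knockouts lay above NT with no overlap. The mitochondrial mRNAs made up 1.98%, 1.54% and 1.76% in NT, 1.83%, 2.17% and 1.89% in HOXA9_KO, and 1.523%, 1.522% and 1.529% in SAFB_KO. Here HOXA9_KO overlapped NT, and all SAFB_KO libraries lay below the lowest NT library, which was close to them. In the second experiment the nuclear members took 0.930% to 0.980% of the reads in NT_MEIS1ex and 0.941% to 0.959% in MEIS1_KO, which overlapped, and the mitochondrial mRNAs rose from 2.13% to 2.42% in NT_MEIS1ex to 2.51% to 2.78% in MEIS1_KO, without overlap.

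The ratio of summed mitochondrial to summed nuclear counts within a library does not depend on how libraries are scaled. On the log2 scale it was 1.22, 0.834 and 1.02 in NT, 0.962, 1.25 and 1.03 in HOXA9_KO, and 0.749, 0.794 and 0.777 in SAFB_KO. It was 1.16, 1.36, 1.34 and 1.12 in NT_MEIS1ex and 1.56, 1.42, 1.45 and 1.39 in MEIS1_KO. The ratio was thus lower in every SAFB_KO library than in any NT library, higher in every MEIS1_KO library than in any of its controls, and not separated in HOXA9_KO. The values describe these libraries and carry no test. Leaving out 1 library at a time, the difference in means ranged from -0.35 to -0.15 for SAFB_KO and from 0.17 to 0.25 for MEIS1_KO. For HOXA9_KO it ranged from -0.039 to 0.15, and it was below 0 without NT replicate 2 and without HOXA9_KO replicate 2.

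**Figure D1:**
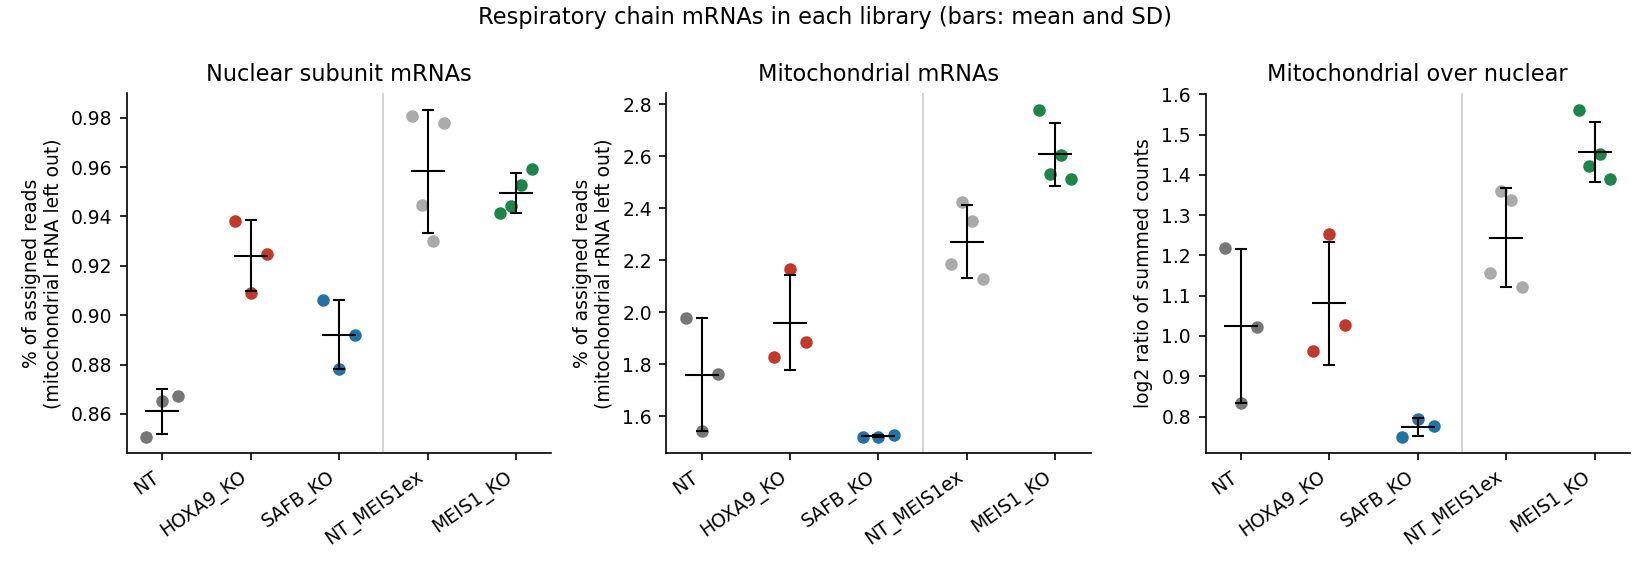
Shares of assigned reads, mitochondrial rRNA left out, for summed nuclear (left) and mitochondrial (middle) members, and the log2 ratio of the sums (right); each point is a library, bars are mean and SD, and the vertical line parts the 2 experiments. The nuclear share of HOXA9_KO and SAFB_KO lay above NT, and the ratio lay below NT in SAFB_KO and above NT_MEIS1ex in MEIS1_KO.

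In HOXA9_KO, 67 of the 81 tested nuclear members rose and 1 fell, with a median log2 change of 0.32. Over all 18876 tested genes 27.6% were called higher and 29.9% lower, with a median of -0.071. Of nuclear coding genes of at least 10 CPM, 45.1% were called higher and 29.1% lower (median 0.079). The 8 members with too few reads to test were ATP5MF-PTCD1, ATP5MGL, NDUFC2-KCTD14, COX4I2, COX6A2, COX6B2, COX7B2 and COX8C. The groups did not overlap for 68 of the 81, against 62.6% of all tested genes. By complex, 28 of 39 tested genes rose for complex I (1 fell), 4 of 4 for complex II, 8 of 9 for complex III, 10 of 12 for complex IV and 17 of 17 for ATP synthase. Scaling to nuclear protein-coding counts gave 31 nuclear members higher and 16 lower, with a median of 0.069, where that of all tested genes was -0.32. The number and part of the directions thus depend on the scaling.

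The largest rise was that of NDUFB9, an accessory subunit of the membrane arm of complex I. NDUFB9 went from 122, 118 and 121 CPM in NT to 213, 206 and 217 CPM in HOXA9_KO, a log2 change of 0.82 ± 0.036 (adjusted p = 2.5e-25). NDUFA3, another accessory subunit, went from 17.1, 16.95 and 18.3 CPM to 29.4, 29.3 and 30.0 CPM (0.76 ± 0.062). These groups lay far apart for both genes. UQCRC1, a core protein of complex III, went from 124, 137 and 140 CPM to 227, 209 and 220 CPM (0.71 ± 0.040). UQCR11, a small complex III subunit, went from 27.9, 29.9 and 31.1 CPM to 47.4, 46.8 and 45.6 CPM (0.66 ± 0.053). UQCR10, also small, rose by 0.59 ± 0.054. In ATP synthase the largest rise was that of the small membrane subunit ATP5MJ, from 46.4, 49.0 and 45.9 CPM to 72.6, 73.1 and 68.0 CPM (0.60 ± 0.046). All 6 of these genes were called in 19 of 19 settings. Under nuclear protein-coding scaling the log2 changes of NDUFB9, NDUFA3 and UQCRC1 were 0.57, 0.51 and 0.46, and those of UQCR11, UQCR10 and ATP5MJ were 0.40, 0.34 and 0.34.

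The exception was NDUFA4L2, a hypoxia-inducible relative of NDUFA4 and the only tested nuclear member that fell in either HOXA9_KO or SAFB_KO under TMM scaling. NDUFA4L2 went from 4.95, 5.31 and 6.10 CPM in NT to 1.29, 1.80 and 1.43 CPM in HOXA9_KO, a log2 change of -1.84 ± 0.16 (adjusted p = 1.7e-14). In SAFB_KO it stood at 2.36, 2.21 and 2.29 CPM (-1.25 ± 0.14, adjusted p = 6.3e-10). Neither knockout overlapped NT. In MEIS1_KO it was 9.93 to 11.1 CPM against 10.1 to 15.9 CPM in its controls (-0.29 ± 0.11, adjusted p = 0.11), which overlapped. NDUFA4 itself rose by 0.24 ± 0.049 in HOXA9_KO and 0.22 ± 0.048 in SAFB_KO, but under nuclear protein-coding scaling these were -0.0091 and 0.080 and neither was called.

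In SAFB_KO, 58 of the 81 tested nuclear members rose and 1 fell, with a median of 0.18. Of all tested genes 20.2% were called higher and 15.3% lower (median -0.018). Of nuclear coding genes of at least 10 CPM, 37.5% were called higher and 14.6% lower (median 0.075). Of the 81, 65 had groups that did not overlap, against 46.3% of all tested genes. Rises were counted in 25 of 39 genes of complex I, 2 of 4 of complex II, 7 of 9 of complex III, 9 of 12 of complex IV and 15 of 17 of ATP synthase. Nuclear protein-coding scaling left 18 nuclear members higher and 5 lower, with a median of 0.042, where that of all tested genes was -0.16.

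NDUFB9 again led, at 173, 154 and 160 CPM against 118 to 122 CPM in NT (0.43 ± 0.036, adjusted p = 4.3e-14). ATP5F1E, the epsilon subunit of the catalytic F1 head, went from 59.998 to 61.7 CPM in NT to 85.5, 76.1 and 79.2 CPM (0.40 ± 0.043). ATP5PF, part of the stalk that holds the F1 head, went from 27.4, 23.4 and 24.8 CPM to 36.7, 31.5 and 29.4 CPM (0.36 ± 0.067). The SAFB_KO libraries lay above NT for each. NDUFA3 rose by 0.39 ± 0.063, ATP5MJ by 0.39 ± 0.046, and UQCRB, a small complex III subunit, rose by 0.35 ± 0.030. These 6 genes were called in 19 of 19 settings, with log2 changes of 0.29, 0.26, 0.22, 0.25, 0.25 and 0.21 under nuclear protein-coding scaling, in the order named. UQCR11, by contrast, had a change of 0.14 ± 0.054 that held in 11 of 19 settings.

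HOXA9_KO and SAFB_KO were compared with the same NT libraries, so their changes are not independent of each other. The direct contrast of HOXA9_KO with SAFB_KO does not subtract NT, but the NT libraries shared its fit, filter and scaling. In it 43 nuclear members were higher in HOXA9_KO and 2 lower (median 0.14), where 20.1% of all tested genes were higher and 20.5% lower. Under nuclear protein-coding scaling that split was 21 to 11.

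In MEIS1_KO, 1 nuclear member rose, 3 fell and 77 were not called, with a median of -0.031. Over all 15744 tested genes 4.97% were called higher and 3.84% lower (median 0.0018), and 8 nuclear members had groups without overlap, where 15.7% of all tested genes did. Both counts lie at or below the background. COX6C, a small complex IV subunit, went from 72.6, 70.1, 67.9 and 69.7 CPM in NT_MEIS1ex to 80.9, 80.2, 76.2 and 79.8 CPM (0.18 ± 0.048, adjusted p = 0.0265). COX6C was also called higher in HOXA9_KO (0.14 ± 0.037) and SAFB_KO (0.19 ± 0.037), the 1 member called the same way in all 3. Nuclear protein-coding scaling made it lower in HOXA9_KO (-0.11) and left it uncalled in SAFB_KO (0.055). COX7A2L, which helps join complexes III and IV into supercomplexes, fell from 114, 104, 111 and 128 CPM to 93.3, 95.5, 96.3 and 102 CPM (-0.24 ± 0.059, adjusted p = 0.014). COX5A fell by 0.24 ± 0.068 (adjusted p = 0.039) and the complex I subunit NDUFB4 by 0.18 ± 0.052 (adjusted p = 0.040). These calls are near the threshold: COX6C was called in 10, COX7A2L in 14, COX5A in 9 and NDUFB4 in 9 of 17 settings.

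The knockout effects themselves were compared in 1 fit of all 17 libraries. The HOXA9 effect exceeded the MEIS1 effect for 65 nuclear members and was below it for 1 (median 0.39), against 24.5% and 19.7% of all tested genes. For the SAFB effect these numbers were 43 and 1 (median 0.23), against 12.4% and 8.49%. Under nuclear protein-coding scaling they were 24 and 6 for HOXA9, and 1 and 3 for SAFB, so the nuclear calls of the SAFB contrast depend on the scaling. Experiment and knockout cannot be told apart in these differences.

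**Figure D2:**
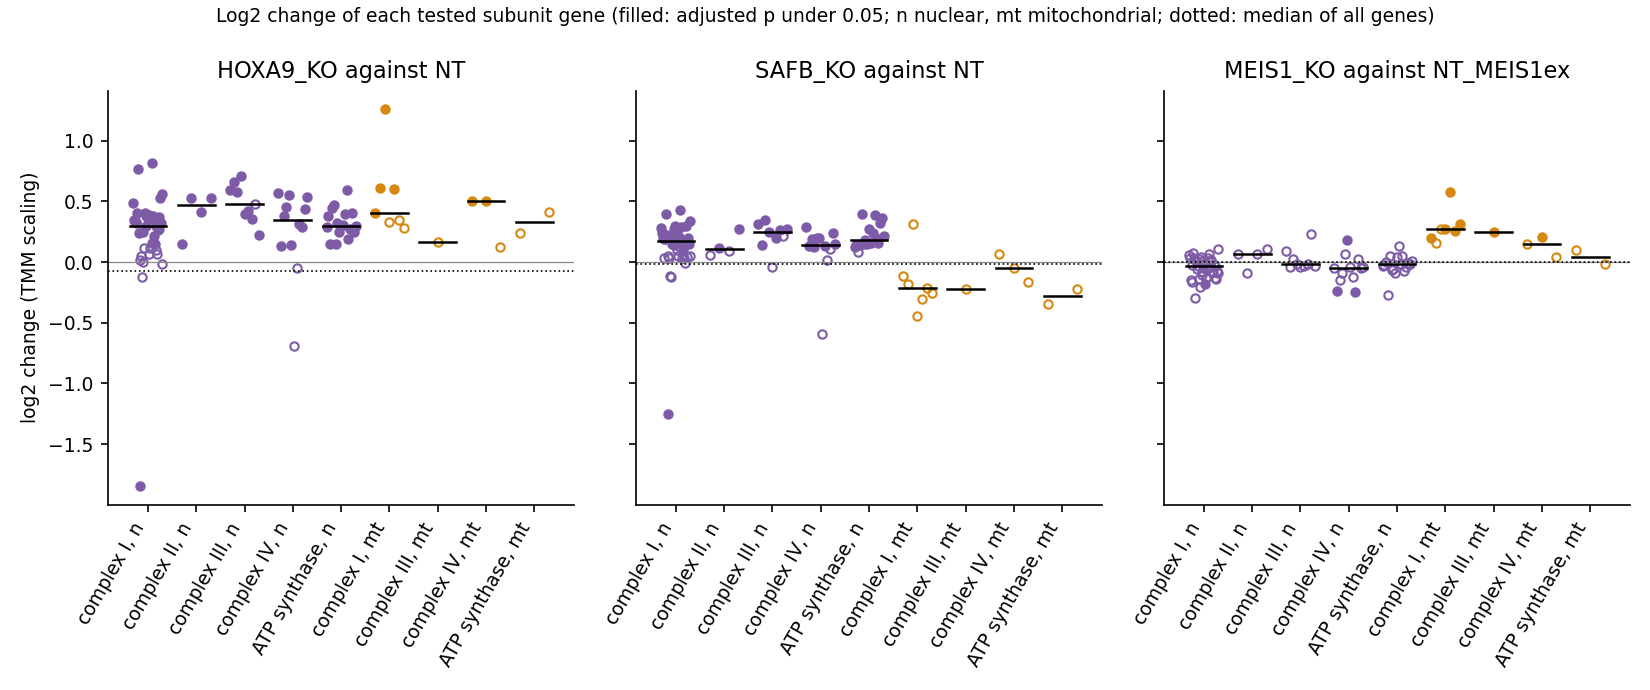
Log2 change (TMM scaling) of each tested member by complex, nuclear (n) in violet and mitochondrial (mt) in orange; filled points are called, short lines are medians and the dotted line is the median of all tested genes. Nuclear members lay mostly above 0 in HOXA9_KO and SAFB_KO, and mitochondrial members lay above 0 in HOXA9_KO, above 0 in MEIS1_KO except MT-ATP8 (-0.012), and mostly below 0 in SAFB_KO. In HOXA9_KO 22 nuclear and 3 mitochondrial members, and in SAFB_KO 23 and 1, went from above to below 0 under nuclear protein-coding scaling.

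Complex II, which has no mitochondrial subunit, oxidises succinate. SDHB, its iron-sulphur subunit, went from 75.02, 76.4 and 80.3 CPM in NT to 112, 109 and 111 CPM in HOXA9_KO (0.52 ± 0.039, adjusted p = 1.2e-16) and 81.6, 81.8 and 87.5 CPM in SAFB_KO (0.12 ± 0.039, adjusted p = 0.018). SDHD, a membrane anchor, went from 93.6, 94.7 and 93.9 CPM to 136, 134 and 136 CPM (0.53 ± 0.035, adjusted p = 2.6e-18) and 113, 112 and 116 CPM (0.27 ± 0.035). Both knockouts lay above NT for these genes, but SDHB in SAFB_KO was -0.024 and uncalled under nuclear protein-coding scaling. SDHA, the flavoprotein, rose by 0.15 ± 0.035 in HOXA9_KO under TMM scaling and was called lower (-0.10) under nuclear protein-coding scaling, and its SAFB_KO change was 0.055 ± 0.035 (adjusted p = 0.23), which became -0.084 and was called lower under that scaling. SDHC, the other anchor, changed by 0.41 ± 0.14 in HOXA9_KO (adjusted p = 0.042), a call that held in 9 of 19 settings, and by 0.094 ± 0.14 in SAFB_KO. None of the 4 passed the test in MEIS1_KO, where their log2 changes were 0.067, -0.090, 0.064 and 0.11 in the order SDHA to SDHD.

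Several subunits exist as paired forms, one broadly expressed and one tied to particular tissues. Per kilobase of transcript, COX4I1 stood at 159 CPM in NT and COX4I2 was listed at 0. The same held for COX6A1 (130 CPM per kilobase) against COX6A2 (0), COX6B1 (146) against COX6B2 (0.105), COX7A2 (111) against COX7A1 (0.887), and COX8A (124) against COX8C (0.0254). COX7A1, the only one of the low forms with enough reads to test, stood at 0.587 to 0.771 CPM in NT and was not called in any knockout under TMM scaling (-0.94 and lower in HOXA9_KO under nuclear protein-coding scaling). Of the broad forms, COX4I1 went from 141, 137 and 138 CPM in NT to 206, 200 and 211 CPM in HOXA9_KO (0.56 ± 0.035) and 178, 162 and 169 CPM in SAFB_KO (0.28 ± 0.035). COX6A1, COX6B1 and COX8A rose by 0.45 ± 0.040, 0.55 ± 0.036 and 0.54 ± 0.045 in HOXA9_KO, and by 0.13 ± 0.040, 0.20 ± 0.036 and 0.15 ± 0.045 in SAFB_KO, where under nuclear protein-coding scaling they were at -0.013, 0.063 and 0.012 and none was called. COX7A2 differed, with -0.053 ± 0.042 in HOXA9_KO (adjusted p = 0.29) and 0.13 ± 0.042 in SAFB_KO, values that became -0.30 (called lower) and -0.010 under nuclear protein-coding scaling. COX7A2L rose by 0.31 ± 0.046 in HOXA9_KO (0.061 and uncalled under that scaling) and was at 0.017 ± 0.046 in SAFB_KO (adjusted p = 0.81, and -0.12 and called lower under that scaling).

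The proton-carrying c ring of ATP synthase is encoded by 3 genes with the same mature protein. ATP5MC2 rose by 0.32 ± 0.036, ATP5MC3 by 0.25 ± 0.037 and ATP5MC1 by 0.15 ± 0.053 in HOXA9_KO. In SAFB_KO ATP5MC2 rose by 0.18 ± 0.036, ATP5MC3 by 0.15 ± 0.037 and ATP5MC1 by 0.15 ± 0.052, all called under TMM scaling. Under nuclear protein-coding scaling ATP5MC3 and ATP5MC1 in HOXA9_KO were -0.0012 and -0.10 and none of the 6 values was called. UQCRH, the hinge protein of complex III, rose by 0.35 ± 0.040 and 0.26 ± 0.040. Its intronless copy UQCRHL, at 1.11 to 1.85 CPM in NT, shares nearly all of its coding sequence with UQCRH, so reads of the 2 may be split and its values are uncertain.

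Many of these promoters share short sequence motifs. RefSeq windows (GRCh38.p14) of 250 bases before and 50 after the start were matched for 70 nuclear members and 15306 protein-coding genes, and the first listed window was used where a gene had more than 1. Motifs were searched on both strands by exact letters. The NRF1 core CGCATGCG occurred in 10 of 70 member windows (14.3%), against 3.83% of the windows of 10427 tested coding genes. The core of ETS-family factors such as GABP, CCGGAAG, occurred in 20 of 70 (28.6%) against 18.9%, and the YY1 motif AAGATGGCG in 8 of 70 (11.4%) against 3.88%. Of the 46 windows of members that rose in both HOXA9_KO and SAFB_KO, 18 held the ETS core (39.1%), against 2 of 19 windows of the other tested members, while the NRF1 core was in 7 of 46 and 3 of 19. In the same split the YY1 motif was in 3 of 46 and 5 of 19 and the MEIS core described next in 6 of 46 and 5 of 19, lower shares among the members that rose, and the E-box in 5 of 46 and 2 of 19. The MEIS core TGACAG was in 15.7% of member windows against 13.4%, the E-box CACGTG in 7 of 70 against 1043 of 10427, and the PBX-HOX motif TGATTNAT in 1.43% against 1.30%. The ETS core ends and the YY1 motif begins with AAG, so these 2 can share letters. A match describes letters only, and no test was made. The split rests on calls under TMM scaling in these same data. Motif shares among all genes that rose in both knockouts were not counted, so the split is no result about the members that rose.

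The 140 bases just before the start are shown for 5 members, all with the ETS core, that rose in both HOXA9_KO and SAFB_KO under TMM scaling. They lie at chr11:112086733-112086872 (SDHD, plus strand), chr1:17054033-17054172 (SDHB, minus), chr19:1605463-1605602 (UQCR11, minus), chr12:120437973-120438112 (COX6A1, plus) and chr19:35648183-35648322 (COX6B1, plus). NDUFS3 at chr11:47578934-47579073 (plus), chosen after its values were seen, is shown because its window also holds the ETS core while it was not called in any knockout under TMM scaling, with changes of 0.099 ± 0.051 in HOXA9_KO (-0.15 and called lower under nuclear protein-coding scaling), 0.031 ± 0.050 in SAFB_KO and -0.084 ± 0.052 in MEIS1_KO. Sequences run 5′ to 3′ on the gene's strand, with the NRF1 and ETS cores in capitals.
SDHD: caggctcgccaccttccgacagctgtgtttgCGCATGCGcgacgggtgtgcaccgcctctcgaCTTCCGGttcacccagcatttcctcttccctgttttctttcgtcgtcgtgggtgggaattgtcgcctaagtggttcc
SDHB: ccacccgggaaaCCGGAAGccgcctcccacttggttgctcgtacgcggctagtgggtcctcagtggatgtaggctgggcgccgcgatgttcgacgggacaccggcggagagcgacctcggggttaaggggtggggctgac
UQCR11: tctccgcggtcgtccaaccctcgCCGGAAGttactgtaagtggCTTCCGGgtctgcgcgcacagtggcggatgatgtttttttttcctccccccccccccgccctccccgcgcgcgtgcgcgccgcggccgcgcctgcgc
COX6A1: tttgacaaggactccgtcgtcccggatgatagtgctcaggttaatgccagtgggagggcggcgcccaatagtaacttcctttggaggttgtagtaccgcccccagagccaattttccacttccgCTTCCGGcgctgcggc
COX6B1: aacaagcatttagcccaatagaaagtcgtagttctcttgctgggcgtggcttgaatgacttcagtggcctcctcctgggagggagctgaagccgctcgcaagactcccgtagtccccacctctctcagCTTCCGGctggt
NDUFS3: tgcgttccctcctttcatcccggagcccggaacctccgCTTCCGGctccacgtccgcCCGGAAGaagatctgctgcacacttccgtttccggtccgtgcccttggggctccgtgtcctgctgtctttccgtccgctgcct
In the bases shown, SDHD holds both cores, with the NRF1 core starting 109 bases and the ETS core 77 bases before the start. The longer window used for the counts also holds an NRF1 core for COX6A1 and a YY1 motif for SDHB, not within the bases shown. UQCR11 holds the ETS core in both orientations, 117 and 97 bases before the start, and so does NDUFS3, at 102 and 83 bases. The 5 do not stand for all members that rose in both knockouts. NDUFA3, ATP5MJ and UQCR10 also rose in both, and their windows hold no NRF1, ETS or YY1 motif. In SAFB_KO under nuclear protein-coding scaling, SDHB, UQCR11, COX6A1 and COX6B1 were not called (-0.024, 0.0053, -0.013 and 0.063), while SDHD was (0.13).

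All 13 mitochondrial mRNAs had log2 changes above 0 in HOXA9_KO under TMM scaling, and 6 were called higher (27.6% of all tested genes were), with a median of 0.40. Of these 13 changes, 3 were below 0 under nuclear protein-coding scaling, MT-CO3 (-0.13), MT-CYB (-0.082) and MT-ATP6 (-0.010), none of them called under either scaling. The groups did not overlap for 7 of the 13, against 62.6% of all tested genes. They encode core subunits of complexes I, III and IV and of the membrane part of ATP synthase. MT-ND3, a complex I subunit, stood apart: 339, 238 and 269 CPM in NT, and 657, 742 and 625 CPM in HOXA9_KO (1.26 ± 0.14, adjusted p = 0.00028), called in each of 19 settings. MT-CO1, the catalytic subunit of complex IV, went from 5320, 4411 and 4943 CPM to 6610, 7525 and 6612 CPM (0.50 ± 0.081, adjusted p = 0.0017), also called in each of 19 settings. The groups did not overlap for either. MT-ND1 (0.40 ± 0.12), MT-ND2 (0.61 ± 0.14), MT-ND4L (0.60 ± 0.16) and MT-CO2 (0.50 ± 0.14) were called too, but none of these 4 remained called under nuclear protein-coding scaling, where the median was 0.15 and only MT-ND3 and MT-CO1 were called. The number called was 11 without NT replicate 1, 3 without NT replicate 3 or HOXA9_KO replicate 2, and 4 without HOXA9_KO replicate 3. It was 12 with limma-voom and 13 with all libraries in 1 fit.

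In SAFB_KO no mitochondrial mRNA was called by edgeR with TMM scaling in the fit of the first experiment. Of all tested genes 20.2% were called higher and 15.3% lower. For the mitochondrial mRNAs 11 of 13 log2 changes were below 0 and the median was -0.21, while the nuclear median was 0.18. At an unadjusted p under 0.05 there was 1, MT-ND4, DESeq2 called 1 lower, and limma-voom called 7 lower and 1 higher. With edgeR, 4 were called lower in 1 fit of all 17 libraries and 1 with a minimum of 2 CPM. MT-ND4, another complex I subunit, was at 1206, 854 and 1018 CPM in the controls, against 770, 778 and 716 CPM in SAFB_KO (-0.44 ± 0.14, adjusted p = 0.057). MT-ATP6, the proton channel of ATP synthase, was at 547, 381 and 458 CPM in the controls, against 362, 372 and 356 CPM in SAFB_KO (-0.35 ± 0.15, adjusted p = 0.12). SAFB_KO lay below NT for these, the only 2 of the 13 without overlap, where 46.3% of all tested genes had groups without overlap. Both were called lower under nuclear protein-coding scaling (-0.58 and -0.49). The 2 values above 0 were those of MT-ND3 (0.31 ± 0.14, adjusted p = 0.15) and MT-CO1 (0.063 ± 0.081), which nuclear protein-coding scaling took to -0.077. The difference between the mitochondrial and nuclear medians was -0.39 in SAFB_KO, and -0.40 to -0.37 under 9 other settings. A change of scaling moves both medians nearly alike, so that narrow range is no support. With 1 library left out at a time the difference was -0.48 to -0.22, the latter without NT replicate 1.

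HOXA9_KO and SAFB_KO were also compared directly for the mitochondrial mRNAs. All 13 were higher in HOXA9_KO than in SAFB_KO with no overlap, where 48.3% of all tested genes had groups without overlap. Of the 13, 11 were called higher (median 0.56), where 20.1% of all tested genes were. The 13 mRNAs are cut from shared long transcripts and measured in the same libraries. Their counts, here and in the other comparisons, are thus not counts of independent genes. The called changes ran from MT-CYB at 0.39 ± 0.12 (adjusted p = 0.044) to MT-ND3 at 0.95 ± 0.14 (adjusted p = 0.0019), with MT-ND4L at 0.91 ± 0.17 and MT-ND4 at 0.77 ± 0.15. MT-CO3 (0.29 ± 0.096, adjusted p = 0.055) and MT-ATP8 (0.63 ± 0.24, adjusted p = 0.085) were not called. Nuclear protein-coding scaling left 8 called higher, with a median of 0.45, and a fit with replicate number as a block left 6.

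**Figure D3:**
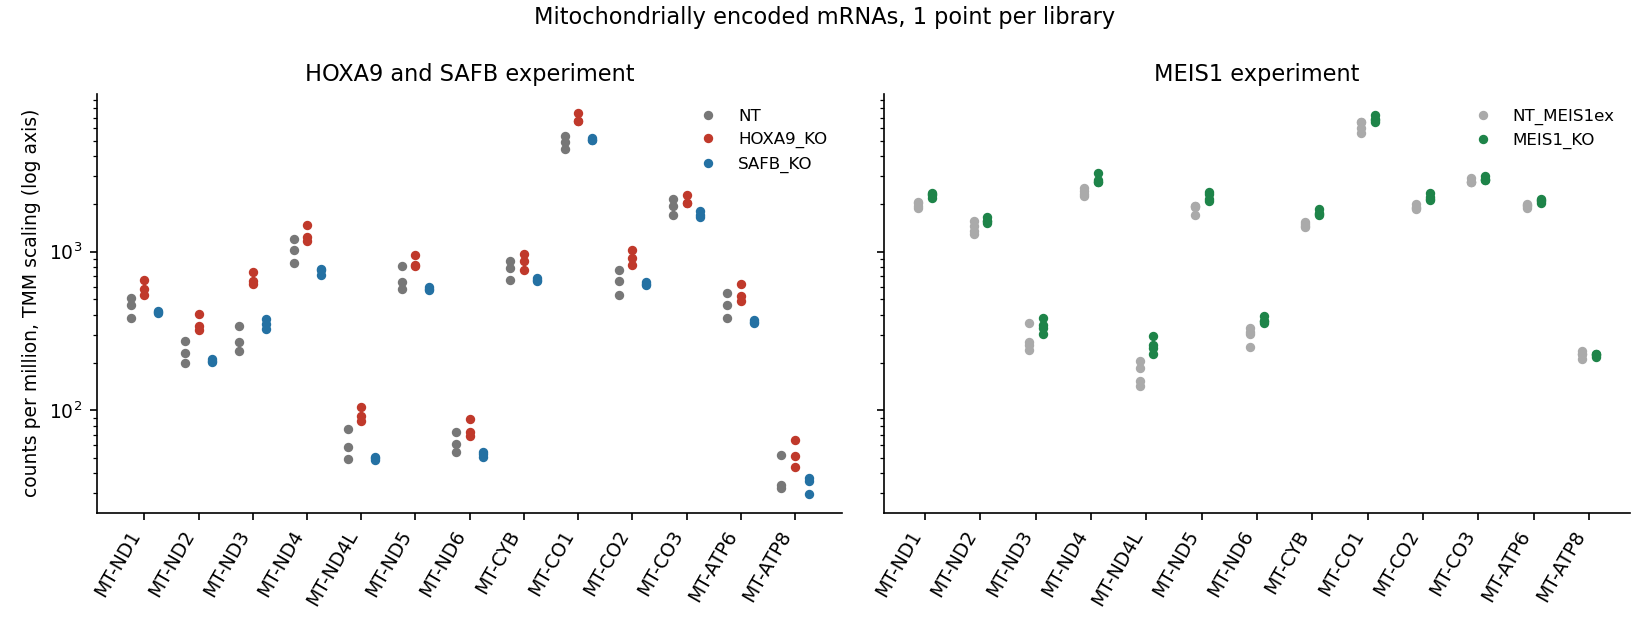
CPM (TMM scaling, log axis) of each mitochondrial mRNA, 1 point per library, in the first experiment (left) and the second (right). MT-ND3 in HOXA9_KO, at 625 to 742 CPM, lay above NT at 238 to 339 CPM, the SAFB_KO points lay close together, and MT-CYB in MEIS1_KO lay above its controls.

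In MEIS1_KO 7 of the 13 mitochondrial mRNAs rose and none fell, with 12 changes above 0, a median of 0.21, and 8 with groups that did not overlap. Over all tested genes 4.97% were called higher and 15.7% had groups without overlap. MT-CYB, the haem-bearing core of complex III, went from 1459, 1503, 1527 and 1428 CPM in NT_MEIS1ex to 1855, 1704, 1757 and 1719 CPM (0.25 ± 0.045, adjusted p = 0.0018), and it was the 1 mitochondrial mRNA called in each of 17 settings. MT-ND4 went from 2304, 2505, 2413 and 2229 CPM to 3114, 2739, 2830 and 2728 CPM (0.27 ± 0.053, adjusted p = 0.0032). MT-ND4L had the largest change, from 141, 206, 185 and 152 CPM to 293, 247, 225 and 256 CPM (0.58 ± 0.13, adjusted p = 0.028). No group overlapped its controls for these 3. The other rises were those of MT-ND1 (0.20 ± 0.046), MT-ND5 (0.25 ± 0.056), MT-ND6 (0.32 ± 0.070) and MT-CO2 (0.21 ± 0.046). Nuclear protein-coding scaling left 7 called, and 1 fit of all 17 libraries left 2. The mitochondrial median exceeded the nuclear one by 0.24, and by 0.237 to 0.240 under 8 other settings. A change of scaling moves both medians nearly alike, so that narrow range is no support. With 1 library left out at a time the difference was 0.20 to 0.27.

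Against MEIS1, the SAFB effect on mitochondrial mRNAs was lower for 7 of 13 and higher for 0, where 8.49% of all tested genes were lower. The largest called differences were those of MT-ND4L (-0.87 ± 0.22, adjusted p = 0.014), MT-ND4 (-0.71 ± 0.14, adjusted p = 0.0035) and MT-ND6 (-0.57 ± 0.16, adjusted p = 0.022). Nuclear protein-coding scaling gave 9 lower. The HOXA9 effect exceeded the MEIS1 effect for 3 of 13, against 24.5% of all tested genes: MT-ND3 (1.03 ± 0.20), MT-ND2 (0.49 ± 0.14) and MT-CO1 (0.39 ± 0.081), and for MT-ND3 alone under nuclear protein-coding scaling, where MT-CYB was lower (-0.36).

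**Figure D4:**
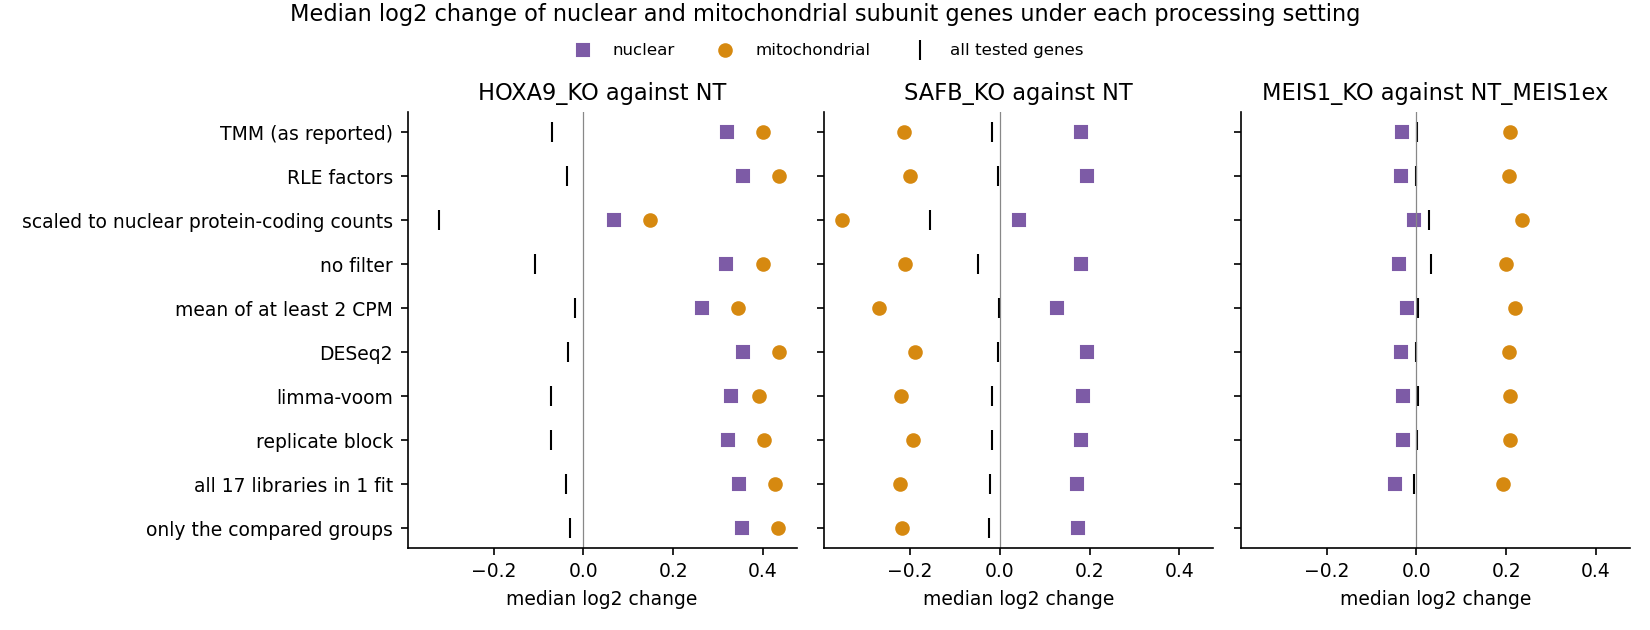
Median log2 change of nuclear members (squares), mitochondrial members (circles) and all tested genes (ticks) under each way of scaling, filtering or testing, shown in rows. The distance between circles and squares was 0.062 to 0.082 in HOXA9_KO, -0.40 to -0.37 in SAFB_KO and 0.237 to 0.240 in MEIS1_KO across settings. Nuclear protein-coding scaling moved both towards lower values in HOXA9_KO and SAFB_KO. A change of scaling moves both nearly alike, so a steady distance is no support. With 1 library left out at a time, not drawn here, the distance was -0.074 to 0.16, -0.48 to -0.22 and 0.20 to 0.27.

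The make-up of the mitochondrial pool was compared as the share of each mRNA among the 13, which no library scaling affects. MT-CO1 held 42.5% ± 1.46 (SD, n = 3) of the pool in NT, 45.1% ± 0.719 in HOXA9_KO and 46.7% ± 0.379 in SAFB_KO. MT-ND3 rose in share from 2.43% ± 0.153 in NT to 4.40% ± 0.164 in HOXA9_KO and 3.20% ± 0.222 in SAFB_KO, without overlap between any of the 3 groups. MT-CO3 went the other way, from 16.7% ± 0.142 in NT to 13.7% ± 0.265 in HOXA9_KO and 15.7% ± 0.468 in SAFB_KO, again without overlap. The lowest shares were those of MT-ATP8 (0.339% ± 0.0542), MT-ND4L (0.526% ± 0.0505) and MT-ND6 (0.544% ± 0.0142) in NT. MT-ND6 is the only one of the 13 read from the other DNA strand. In the second experiment MT-ND4L went from 0.743% ± 0.0936 (SD, n = 4) to 0.985% ± 0.0882 and MT-CO3 from 12.2% ± 0.403 to 11.1% ± 0.126, both without overlap. Per kilobase, MT-CO1 was at 3172 CPM and MT-CO3 at 2458 CPM in NT, MT-CO2 at 952, MT-ND3 at 815, and MT-ND6 lowest at 120.

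MT-ATP8 and MT-ATP6 share bases, as do MT-ND4L and MT-ND4, and a read that fits both genes of a pair can be left out as ambiguous. MT-ATP8 is shown for that reason: its coding sequence at chrM:8366-8572 (GENCODE 29, GRCh38, plus strand) is 207 bases long, and the 46 bases in capitals, chrM:8527-8572, are also the first bases of MT-ATP6.
MT-ATP8: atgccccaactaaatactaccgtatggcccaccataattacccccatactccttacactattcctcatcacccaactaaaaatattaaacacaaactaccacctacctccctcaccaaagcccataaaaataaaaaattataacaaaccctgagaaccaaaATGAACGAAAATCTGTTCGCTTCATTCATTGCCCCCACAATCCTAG
MT-ND4L, of 297 bases, shares only its last 7 bases with MT-ND4. Reads can also be taken up by nuclear copies of mitochondrial DNA. Of the reads of MT-ATP6 and its copy MTATP6P1 together, the copy held 9.95% to 13.7% over all libraries, and of MT-ND2 and MTND2P28, 5.28% to 7.71%. For the 6 other pairs examined it was at most 0.651%. Mitochondrial rRNA moved in parts as well: MT-RNR1 rose by 1.73 ± 0.17 and MT-RNR2 by 0.73 ± 0.13 in HOXA9_KO, and MT-RNR1 by 0.57 ± 0.17 in SAFB_KO under TMM scaling, the last not called under nuclear protein-coding scaling (0.43). The libraries were depleted of ribosomal RNA by kit, per the labels.

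Tested nuclear members have short transcripts, with a median of 1078 bases against 3058 for all tested nuclear coding genes. Under TMM scaling, short coding genes as a whole moved. All changes in this paragraph are under that scaling, and medians by length under nuclear protein-coding scaling were not calculated. Among genes of at least 10 CPM with a transcript under 1 kb, the median was 0.33 for the 37 members and 0.18 for the 346 other coding genes in HOXA9_KO, with 83.8% and 54.0% called higher. In SAFB_KO the medians were 0.20 and 0.15, with 81.1% and 49.7% called higher, and in MEIS1_KO they were -0.037 and -0.098. At 4 kb or more the medians in HOXA9_KO were 0.32 for 8 members and 0.040 for 3281 other genes, and in SAFB_KO 0.14 and 0.056. The members' median lay above that of other genes in each of the 4 length classes in both comparisons, with no test of the difference. Across the 81 members, the log2 of transcript length had a Pearson correlation of 0.029 with the HOXA9_KO change and -0.052 with the SAFB_KO change. The Spearman correlations were 0.010 and -0.17. These are descriptions of genes that share libraries, and the part of transcript length in the changes was not tested.

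**Figure D5:**
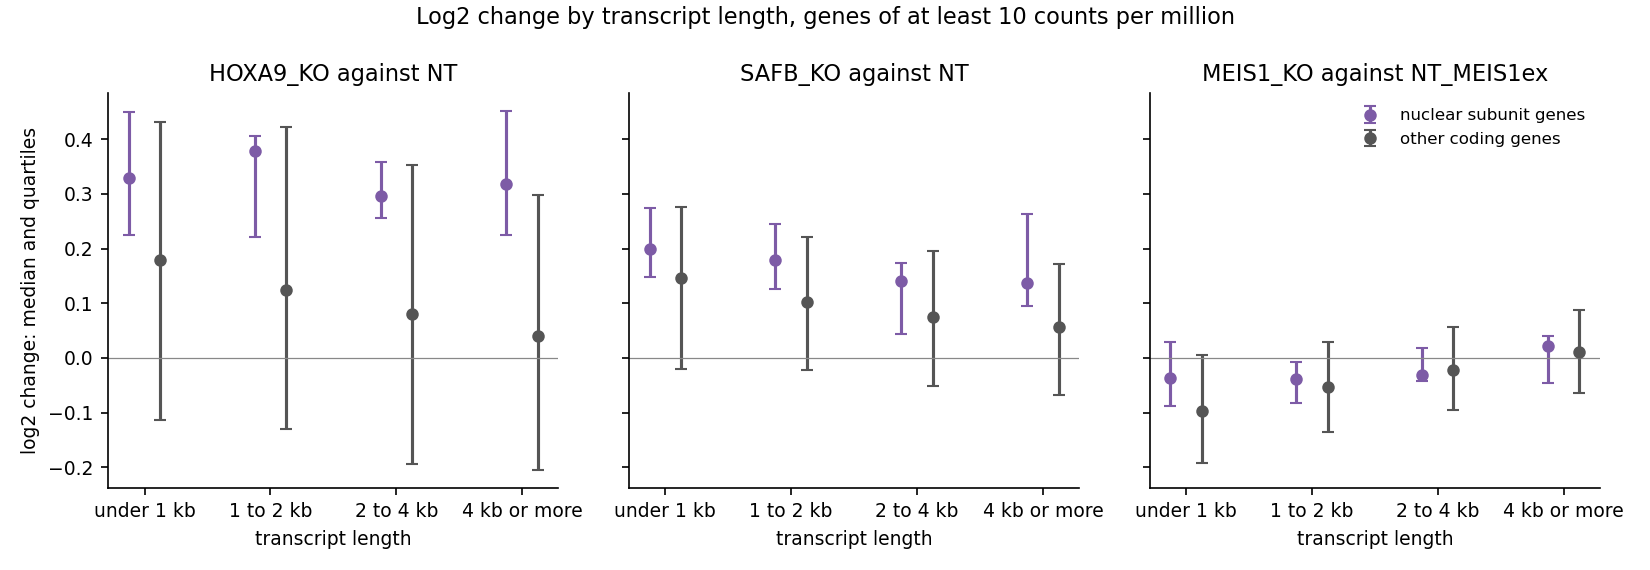
Median and quartiles of the log2 change (TMM scaling) by transcript length for nuclear members (violet) and other nuclear coding genes (grey) of at least 10 CPM. Members lay above other genes in each class in HOXA9_KO and SAFB_KO, and both were near or below 0 in MEIS1_KO.

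Calls among genes that serve the chain went in both directions. Over all tested genes 27.6% were called higher and 29.9% lower in HOXA9_KO, 20.2% and 15.3% in SAFB_KO, and 4.97% and 3.84% in MEIS1_KO. Among nuclear coding genes of at least 10 CPM these shares were 45.1% and 29.1%, 37.5% and 14.6%, and 6.14% and 5.72%. Counts near either set of shares are no result about a list. Of 17 complex I assembly factors, 5 rose and 2 fell in HOXA9_KO, 2 rose and 1 fell in SAFB_KO, and 1 fell in MEIS1_KO, where NDUFAF3 changed by -0.27 ± 0.060. Complex II factors gave 3 higher and 1 lower of 4 in HOXA9_KO, among them SDHAF2 at 0.55 ± 0.093, and 1 higher in SAFB_KO. Complex III factors gave 0 higher and 3 lower of 6 in HOXA9_KO, among them UQCC2 at -0.45 ± 0.063, and 1 higher in SAFB_KO. For complex IV, 9 of 23 identifiers (22 symbols) rose and 4 fell in HOXA9_KO, and 9 rose and 2 fell in SAFB_KO. COX20, which guides the MT-CO2 protein, fell by 1.02 ± 0.11 and 0.64 ± 0.11. ATP synthase factors gave 2 higher and 1 lower of 6, then 2 and 0, with TMEM70 at 0.36 ± 0.053 and 0.21 ± 0.053. Apart from NDUFAF3, no assembly factor was called in MEIS1_KO. A list of 14 genes held cytochrome c, coenzyme Q synthesis and CYC1. CYC1 encodes cytochrome c1, a catalytic subunit of complex III whose symbol the rule for members does not cover. Of the 14, 6 rose and 3 fell in HOXA9_KO, among them CYC1 at 0.49 ± 0.034, and 4 rose in SAFB_KO, among them CYCS at 0.19 ± 0.034. These counts are under TMM scaling. Under nuclear protein-coding scaling, higher and lower calls in HOXA9_KO were 1 and 11 for complex I factors and 1 and 1 for complex II. Complex III factors gave 0 and 6, complex IV 1 and 11, ATP synthase 0 and 3, and the list with cytochrome c 2 and 8. In SAFB_KO the calls were 0 and 4, 0 and 0, 0 and 2, 3 and 4, 0 and 0, and 1 and 3 in the same order. The split of several lists thus turned to lower in HOXA9_KO. The medians of all tested genes under that scaling were -0.32 and -0.16, so this turn is no result about a list. SDHAF2 and CYC1 in HOXA9_KO, COX20 in both and NDUFAF3 in MEIS1_KO were called in the same direction under both scalings, and TMEM70 was called under TMM scaling alone. CYCS was called higher in HOXA9_KO under TMM scaling (0.16) and lower under nuclear protein-coding scaling (-0.088), and in SAFB_KO it was called under TMM scaling alone. CYC1 in SAFB_KO was not called under TMM scaling (0.054) and was called lower under the other (-0.085).

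Among genes for making mitochondrial RNA and protein, counts are given first under TMM scaling and are to be read against the same shares. These were 27.6% higher and 29.9% lower of all tested genes in HOXA9_KO, and 20.2% and 15.3% in SAFB_KO. For nuclear coding genes of at least 10 CPM they were 45.1% and 29.1%, and 37.5% and 14.6%. Of 17 mitochondrial transcription and replication genes, 5 rose and 6 fell in HOXA9_KO, and 6 rose and 2 fell in SAFB_KO, with the topoisomerase TOP1MT at 0.64 ± 0.036 and 0.37 ± 0.036. Of 22 RNA-processing genes, 9 rose and 4 fell, then 10 rose and 1 fell. PNPT1, an exonuclease that degrades mitochondrial RNA, fell by 0.44 ± 0.040 and 0.26 ± 0.040. In MEIS1_KO 1 of the 22 fell, LRPPRC, which stabilises mitochondrial mRNAs, by 0.16 ± 0.046. Of 78 mitochondrial ribosomal proteins, 30 rose and 18 fell in HOXA9_KO, 33 rose and 2 fell in SAFB_KO, and 0 rose and 6 fell in MEIS1_KO, among them MRPL58 at -0.25 ± 0.054. Of 11 tested regulators of mitochondrial biogenesis, 3 rose and 4 fell in HOXA9_KO, with ESRRA, a nuclear receptor, at 0.85 ± 0.055 and its coactivator PPARGC1B at 0.72 ± 0.057, and GABPB1 at -0.38 ± 0.051. In SAFB_KO 4 rose and 2 fell, with PPARGC1B at 0.34 ± 0.057 and ESRRA at 0.25 ± 0.056. In MEIS1_KO MYC fell by 0.24 ± 0.045 and the other 10 were not called. Of 14 genes of the citric acid cycle, 9 rose and 2 fell in HOXA9_KO, 8 rose and 1 fell in SAFB_KO, and none was called in MEIS1_KO. Citrate synthase (CS) rose by 0.51 ± 0.032 and 0.28 ± 0.032 and OGDH by 0.59 ± 0.039 and 0.31 ± 0.039, whereas IDH2 fell by 0.56 ± 0.037 in HOXA9_KO. Under nuclear protein-coding scaling, higher and lower calls in HOXA9_KO were 2 and 11 for transcription and replication, 0 and 14 for RNA processing, 8 and 46 for ribosomal proteins, 2 and 8 for biogenesis regulators, and 6 and 5 for the citric acid cycle. In SAFB_KO they were 3 and 6, 2 and 3, 5 and 14, 1 and 6, and 4 and 1 in the same order. In MEIS1_KO 3 ribosomal proteins, MYC and no RNA-processing gene were called lower. The medians of all tested genes under that scaling were -0.32 in HOXA9_KO and -0.16 in SAFB_KO, so a turn to lower is no result about a list. TOP1MT, PNPT1, PPARGC1B, CS and OGDH were called the same way in HOXA9_KO and SAFB_KO under both scalings, as were GABPB1 and IDH2 in HOXA9_KO, and ESRRA in HOXA9_KO but not in SAFB_KO (0.11).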

How the data were processed

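Total RNA of MOLM13 cells was depleted of ribosomal RNA and made into stranded paired-end libraries, per the labels' protocols. Per the submitters' processing notes, the tools were STAR 2.7.10a and HTSeq 1.99.2, besides bedtools and Trim Galore, on the build hg38. The deposited values are whole-number read counts per gene, with no normalization by the authors. The count files of the second experiment are recorded in another layout, without a header, and their deposited values of this other kind are also counts. Rows for unassigned and ambiguous reads were kept out of library sizes and tests.

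Identifiers were matched to GENCODE 29 (57940 of 58278). Genes passing filterByExpr (18876 in the first experiment, 15744 in the second) were fitted with edgeR 4.0.16 in R 4.3.3, TMM factors and the robust quasi-likelihood test, adjusted over all tested genes. All 9 libraries of the first experiment shared 1 fit and the 8 of the second another. A fit of all 17 gave differences of effects. DESeq2 1.42.0 and limma 3.58.1 were alternatives, with other scalings, filters and left-out libraries. Simulated data with known changes were used to test the fit: in HOXA9_KO against NT, 24.6% of changes of 0.25, 62.7% of 0.5 and 64.7% of 1 (log2) were recovered over 18876 genes, and 3.77% of calls were false. In SAFB_KO against NT (18876 genes) recovery was 46.2%, 70.8% and 78.9% with 10% of calls false. In MEIS1_KO against NT_MEIS1ex (15744 genes) it was 28.1%, 71.4% and 87.7% with 8.63% false. The false share exceeded the nominal 5% in both, in simulations that were not repeated. Each simulation changed 200 genes, drawn from all levels, fewer than were called in any of these comparisons. Recovery and false share therefore need not hold for the members or the comparisons reported here.

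Members and lists were chosen with earlier results of these data known. Genes named are the mitochondrial mRNAs, SDHA to SDHD, up to 6 rises and 6 falls per knockout among called nuclear members of at least 2 CPM without overlap, members called alike in all 3, paralogous forms, up to 3 per list by smallest p, and the targets.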

Additional observations from a re-analysis of the deposited data

Results flagged for a closer look

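In groups of 4 libraries, the level of each member was examined for a single library far from the other 3, by the gap to its nearest neighbour over the range of the group, against the 95% critical value of Dixon for 4 values. Of 196 such groups 5 stood out, and chance gives about 1 in 20. ATP5F1A, the alpha subunit of the F1 head, was at 751 CPM in NT_MEIS1ex replicate 4 and at 687 to 693 CPM in the others. NDUFA4 was at 107 CPM in the same library and at 97.6 to 98.9 CPM in the others. ATP5MJ was at 53.4 CPM in NT_MEIS1ex replicate 1 and at 51.2 to 51.4 CPM in the others. NDUFAB1, the mitochondrial acyl carrier protein, was at 25.8 CPM in MEIS1_KO replicate 1 and at 44.6 to 46.3 CPM in the others. ATP5F1A and NDUFAB1 are named because of these values. Mitochondrial rRNA took 0.00941% of assigned reads in MEIS1_KO replicate 4 and 0.000421% to 0.00191% in the others.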

How the results depend on the processing

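Scaling to nuclear protein-coding counts gave, in HOXA9_KO, 31 nuclear members higher and 16 lower and 2 mitochondrial higher, in SAFB_KO 18 nuclear higher and 5 lower and 2 mitochondrial lower, and in MEIS1_KO 1 nuclear lower. Under it 22 nuclear and 3 mitochondrial members turned from above to below 0 in HOXA9_KO and 23 and 1 in SAFB_KO. Among those that the naming rule covers and that were called under at least 1 of both scalings, these were in HOXA9_KO ATP5MC1 (-0.10), ATP5MC3 (-0.0012), ATP5PF (-0.0066), COX5A (-0.12), COX6C (-0.11), NDUFA4 (-0.0091), NDUFB4 (-0.18) and SDHA (-0.10), and in SAFB_KO for COX5A (-0.0086), COX6A1 (-0.013), COX7A2 (-0.010), COX7A2L (-0.12), SDHA (-0.084) and SDHB (-0.024). With a mean of at least 2 CPM, HOXA9_KO had 2 nuclear members lower, and SAFB_KO 3 nuclear and 1 mitochondrial lower. Without a filter MEIS1_KO had 0 nuclear higher and 6 lower. DESeq2 gave 1 mitochondrial member lower in SAFB_KO and 5 nuclear lower in MEIS1_KO. Limma-voom gave 12 mitochondrial higher in HOXA9_KO, and 1 higher and 7 lower in SAFB_KO. All 17 libraries in 1 fit gave 13 mitochondrial higher in HOXA9_KO, 4 lower in SAFB_KO, and 2 higher with 8 nuclear lower in MEIS1_KO. Only the compared groups gave 3 mitochondrial higher in HOXA9_KO. No pairing by replicate number was seen in the deviations of libraries from their group mean. Correlations of these deviations were -0.012 to 0.020 and -0.145 to 0.089 for same-numbered libraries of the 2 experiments. For other pairs they were -0.026 to 0.021 and -0.11 to 0.14. With 3 or 4 libraries per group this is weak evidence against pairing. The replicate block left 0 nuclear higher and 1 lower in MEIS1_KO.

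Leaving out 1 library at a time gave, in HOXA9_KO, 64 to 68 nuclear members higher, 1 to 2 lower, 3 to 11 mitochondrial higher, and a difference of medians of -0.074 to 0.16. In SAFB_KO it gave 46 to 61 nuclear higher, 0 to 1 mitochondrial higher and 0 to 3 lower, a difference of medians of -0.48 to -0.22, and a ratio difference of -0.35 to -0.15. In MEIS1_KO it gave 0 to 2 nuclear higher, 0 to 4 lower and 6 to 10 mitochondrial higher. The cause of these changes was not tested.

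The alternatives for the next contrasts were chosen after seeing the data. For HOXA9_KO against SAFB_KO, nuclear protein-coding scaling gave 21 nuclear higher and 11 lower, the replicate block 6 mitochondrial higher, and left-out libraries 33 to 46 nuclear and 7 to 13 mitochondrial higher. For the HOXA9 less the MEIS1 effect, nuclear protein-coding scaling gave 24 nuclear higher and 6 lower and 1 mitochondrial each way, RLE, no filter and DESeq2 gave 5 mitochondrial higher and limma-voom 6, and left-out libraries 62 to 69 nuclear and 3 to 9 mitochondrial higher. For the SAFB less the MEIS1 effect, nuclear protein-coding scaling gave 1 nuclear higher and 3 lower, the 2 CPM minimum 23 higher, and left-out libraries 29 to 50 nuclear higher and 3 to 10 mitochondrial lower.

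For single named genes, settings other than left-out libraries kept direction and call in 335 cases in HOXA9_KO, 336 in SAFB_KO and 327 in MEIS1_KO. They lost a call in 18, 27 and 13, and gained one in 24, 16 and 3. The direction was reversed in 8 cases in HOXA9_KO and 6 in SAFB_KO.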
